A study of Homo sapiens and Mus musculus with 213 samples.

Results

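The protein kinase C (PKC) family was followed through RNA-seq of 3 HEK293T lines that differ at the G-quadruplex (G4) motif upstream of MYC. Its 9 members here, PRKCA, PRKCB, PRKCD, PRKCE, PRKCH, PRKCQ, PRKCI, PRKCZ and PRKD1, were selected on values of these same libraries, because PRKCB stood out in them, so the members' levels and differences are given as a description, and where they are set against the limits used for other genes, nothing is read from it. They were found by symbol among the 58336 genes listed, each matched 1 identifier, and all 9 were among the 20884 genes that reached the minimum mean of 10 normalized counts. HEK293T is a transformed human embryonic kidney line. The natural motif is present in MYC WT, point mutations in the G-runs of MYC MUT keep it from folding into a G4, and in SWP cells the motif was replaced by a G4-forming motif taken from another gene, which is not named here. Cells of the 3 lines were untreated, with 3 libraries each. The edited lines came from CRISPR editing and single-cell cloning with Sanger genotyping, and the labels do not say which clone was sequenced, so an effect of the edit and a difference between clones cannot be told apart.

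PKC enzymes are serine/threonine kinases that relay signals from receptors at the cell surface. Receptors coupled to Gq proteins activate phospholipase C, which cleaves a membrane lipid into diacylglycerol and an inositol phosphate that releases calcium. Conventional PKCs, here PRKCA and PRKCB, need both diacylglycerol and calcium, calcium-independent PKCs (PRKCD, PRKCE, PRKCH and PRKCQ) need diacylglycerol only, and atypical PKCs (PRKCI and PRKCZ) answer to neither and work in complexes that set cell polarity. PRKD1 encodes protein kinase D, a diacylglycerol-binding kinase that calcium-independent PKCs phosphorylate and activate. PRKCB is best known from B cells and from neurons, and PRKCQ from T cells.

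The promoters of the genes with the most different levels are shown beside that of PRKCA, the closest relative of PRKCB among the members, because the study edited a G4-forming motif. Each stretch covers 250 bases before to 50 bases after a start annotated by RefSeq on GRCh38.p14, and is written 5′ to 3′ along the gene. The stretch of PRKCH lies inside the gene as annotated by GENCODE, which begins at 61187559. The counts of PRKCH may therefore cover transcripts from other starts too. Capitals mark bases within a run of 4 or more stretches of at least 3 G with gaps of 1 to 12 bases, on either strand (a run on the opposite strand reads as C).
PRKCB, chr16:23835733-23836032, plus strand: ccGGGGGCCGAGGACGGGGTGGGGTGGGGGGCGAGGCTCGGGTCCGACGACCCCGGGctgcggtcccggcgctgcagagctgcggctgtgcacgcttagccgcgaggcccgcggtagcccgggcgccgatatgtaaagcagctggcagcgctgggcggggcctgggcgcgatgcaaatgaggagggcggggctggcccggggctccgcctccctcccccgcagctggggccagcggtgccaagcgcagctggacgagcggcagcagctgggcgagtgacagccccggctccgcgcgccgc
PRKCH, chr14:61321329-61321628, plus strand: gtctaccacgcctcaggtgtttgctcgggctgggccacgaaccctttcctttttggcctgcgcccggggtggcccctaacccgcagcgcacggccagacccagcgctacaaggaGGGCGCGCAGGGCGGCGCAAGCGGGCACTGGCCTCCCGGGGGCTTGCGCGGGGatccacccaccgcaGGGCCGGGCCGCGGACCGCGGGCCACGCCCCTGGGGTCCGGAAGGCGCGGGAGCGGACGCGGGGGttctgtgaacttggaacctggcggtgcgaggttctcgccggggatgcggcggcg
PRKCA, chr17:66302363-66302662, plus strand: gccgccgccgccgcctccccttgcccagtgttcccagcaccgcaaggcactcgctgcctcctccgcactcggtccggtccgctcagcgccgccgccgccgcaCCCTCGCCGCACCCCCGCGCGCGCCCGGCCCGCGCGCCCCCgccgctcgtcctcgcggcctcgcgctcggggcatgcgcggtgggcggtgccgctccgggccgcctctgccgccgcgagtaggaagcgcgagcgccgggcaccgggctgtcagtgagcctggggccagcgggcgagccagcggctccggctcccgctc

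All 3 promoters are rich in G and C. PRKCB has 77.7% G and C and 38 CG pairs in its 300 bases, against a median of 58.7% and 14 over 35116 RefSeq promoters, and 95.1% of those promoters have a G and C content no higher than that of PRKCB. With gaps of up to 7 bases between the G-runs, the usual search for a G4 motif, PRKCA held a match on the strand opposite to the gene, and PRKCB and PRKCH held none. With gaps of up to 12 bases, a setting chosen after the first result was seen, PRKCB and PRKCH both held a match on the strand of the gene. Of the 9 members, 5 (PRKCA, PRKCD, PRKCE, PRKCZ and PRKD1) held a match with the short gaps at 1 or more of their 15 RefSeq starts, and 8 with the wider gaps, all but PRKCQ. Over all promoters the share was 25.0% with the short gaps and 37.8% with the wider ones. These shares are per start, while a member counts with a match at any of its starts, so the 2 are not alike. The E-box CACGTG, which MYC and MAX bind, was in none of the 15 windows and in 7.26% of all promoters, and TGACTCA, the sequence bound by FOS and JUN dimers, was in none of the 15 and in 4.95% of all, on either strand. The GC box GGGCGG was in at least 1 window of 8 members, in 2 copies for PRKCB. It was in 44.95% of all promoters, again a share per start and not per gene. A match of letters is no evidence that a factor binds there or that a G4 folds.

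The libraries held between 65024354 and 98497026 reads counted on genes. Values are the deposited normalized counts, which are read counts divided by 1 size factor per library, and 100% of them gave back whole reads. MYC WT replicate 1 and SWP replicate 1 stood apart from the other libraries of their lines, with a chi-square per degree of freedom of 42.1 to 61.1 against them, where other pairs within a line gave 9.00 to 26.8. A sequencing pool is written in the column names of the 3 MYC WT libraries and not in those of the 6 others, so pool and line cannot be told apart in a comparison with MYC WT. MYC itself was at 20020, 28396 and 21580 normalized counts in MYC WT, at 10693, 11176 and 12400 in MYC MUT, and at 14480, 24743 and 25245 in SWP. The 3 MYC MUT libraries were below all others, with a log2 difference from MYC WT of -1.02 ± 0.19 (SE, n = 3 against 3, limma adjusted p = 0.00182), and SWP overlapped MYC WT. All 8 genes of a list of HEK293 lineage markers were expressed in every line, some of them at different levels, which are given with the other markers. Since these are bulk samples, fewer cells of a type and less RNA per cell cannot be told apart.

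Per kb of merged exon sequence, which makes genes of different length comparable, PRKCI and PRKCD were the main PKC transcripts of MYC WT cells and PRKCB was the lowest. PRKCI, an atypical PKC, averaged 1053 ± 41.1 normalized counts per kb (SD, n = 3), PRKCD 813 ± 39.1 and PRKCA 477 ± 58.8. PRKCZ averaged 320 ± 7.07 per kb, PRKD1 263 ± 27.9 and PRKCQ 257 ± 33.9, and the libraries of these last 2 overlapped. PRKCH averaged 144 ± 10.9 per kb, PRKCE 98.4 ± 4.52 and PRKCB 11.8 ± 2.56. The other neighbours in this order did not overlap. The order is the authors' gene counts over one choice of length: per kb of the longest transcript, PRKCD (1392) came before PRKCI (1244), and PRKCZ (1032) before PRKCA (594), while PRKCB (16.2) stayed the lowest.

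In MYC MUT cells PRKCB moved from the last to the fourth place of that order, at 313 ± 10.0 per kb, between PRKCA at 369 ± 25.0 and PRKCZ at 270 ± 4.66, with no overlap with either. Per kb of the longest transcript it came after PRKCA, at 431 against 460, and after PRKCD, PRKCI and PRKCZ. In SWP cells it was again the lowest, at 5.22 ± 0.957 per kb. The summed level of the 9 members was 3437 ± 111 per kb in MYC WT, 3185 ± 25.9 in MYC MUT and 3217 ± 219 in SWP (SD, n = 3), so that the sum was not higher in MYC MUT. PRKCB made up 0.287%, 0.410% and 0.324% of that sum in the MYC WT libraries, 9.58%, 9.78% and 10.1% in the MYC MUT libraries and 0.140%, 0.181% and 0.164% in the SWP libraries. The 3 ranges did not overlap.

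Among the conventional PKCs, PRKCB was far below PRKCA in MYC WT and SWP and close to it in MYC MUT. PRKCB lies on chromosome 16 from 23835983 to 24220611 on the plus strand, with 11049 bases of merged exons. Its normalized counts were 108, 162 and 120 in MYC WT, 3367, 3417 and 3579 in MYC MUT, and 45.8, 66.1 and 61.1 in SWP. They stand on 3515 to 3674 reads in each MYC MUT library, on at most 144 in MYC WT, and on 40, 89 and 53 in SWP. No 2 lines overlapped: every MYC MUT library was above every MYC WT library, and every SWP library was below them. The mean was 26.6 times that of MYC WT in MYC MUT, and in SWP it was 0.444 times that of MYC WT. On the log2(normalized count + 1) scale the difference was 4.74 ± 0.17 (SE) for MYC MUT minus MYC WT and -1.15 ± 0.17 for SWP minus MYC WT, with the same 3 MYC WT libraries in both. Ordered by size without regard to sign, these were the 30th and the 477th differences of the 20884 genes. The spread between libraries, as the SD of log2 values, was 0.30 in MYC WT, 0.27 in SWP and 0.05 in MYC MUT. The opposite directions in the 2 edited lines gave a log2 difference of 5.90 ± 0.17 for MYC MUT minus SWP. No pool is written in the column names of these 2 lines, so their sequencing pools are not known. Without MYC WT replicate 1, which stood apart, the differences from MYC WT were 4.62 in MYC MUT and -1.28 in SWP. Without SWP replicate 1 the difference was 5.74 for MYC MUT minus SWP and -0.998 for SWP minus MYC WT.

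**Figure D1:**
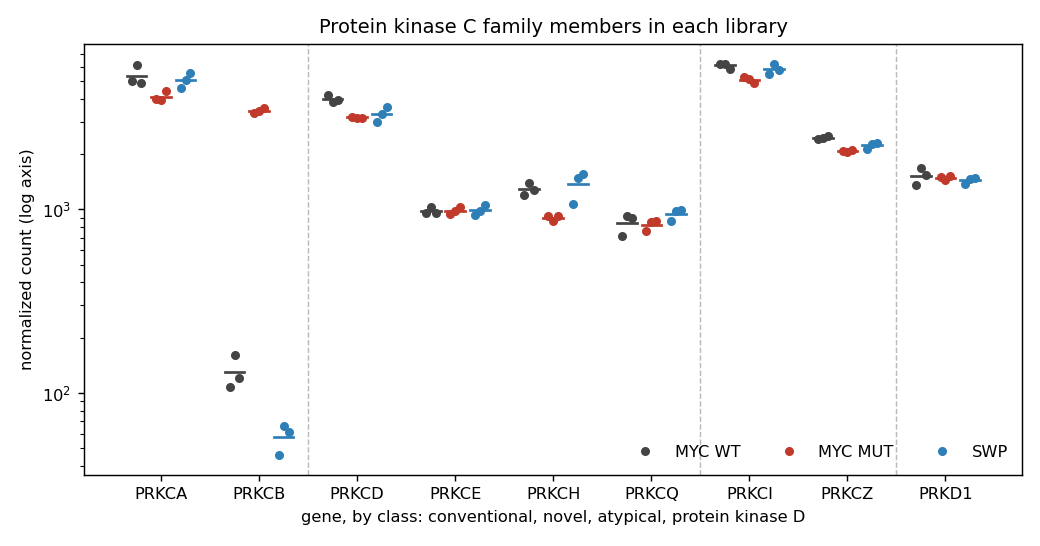
Normalized count (vertical log axis) of the 9 members in each library, with points for the libraries and a bar for the mean of MYC WT, MYC MUT and SWP. PRKCB lies between 3367 and 3579 in MYC MUT and at or below 162 elsewhere, and no other member shows a gap of that size.

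PRKCA, the widely expressed conventional PKC, lies on chromosome 17 from 66302613 to 66810743 on the plus strand. It was at 5000, 6084 and 4899 normalized counts in MYC WT, at 4002, 3921 and 4439 in MYC MUT, and at 4572, 5083 and 5516 in SWP. All MYC MUT libraries were below all others, and MYC WT and SWP overlapped. The log2 difference was -0.37 ± 0.10 for MYC MUT minus MYC WT and -0.07 ± 0.10 for SWP minus MYC WT. Per kb, PRKCA exceeded PRKCB by 37.2 to 45.9 times in the MYC WT libraries and by 76.0 to 98.7 times in those of SWP. In MYC MUT the ratio was 1.13 to 1.23.

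Among the calcium-independent, diacylglycerol-dependent PKCs, PRKCD was lower in both edited lines, PRKCH was lower in MYC MUT, and the ranges of PRKCE overlapped. PRKCD, involved in apoptosis and stress signalling, was at 4210, 3846 and 3922 normalized counts in MYC WT, at 3190, 3162 and 3164 in MYC MUT, and at 3009, 3310 and 3604 in SWP. Both edited lines were below MYC WT in every library, with log2 differences of -0.33 ± 0.08 and -0.27 ± 0.08. PRKCE, at 955 to 1034 normalized counts in MYC WT, 942 to 1035 in MYC MUT and 933 to 1061 in SWP, was the member with the smallest difference in MYC MUT, 0.01 ± 0.08. Its 3 ranges overlapped.

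PRKCH, on chromosome 14 from 61187559 to 61550976 on the plus strand, was at 1201, 1395 and 1277 normalized counts in MYC WT, at 920, 865 and 919 in MYC MUT, and at 1064, 1487 and 1550 in SWP. Every MYC MUT library was below every other library, and SWP spread widely around MYC WT, with replicate 1 lowest. The log2 difference was -0.52 ± 0.13 for MYC MUT minus MYC WT, -0.58 ± 0.13 for MYC MUT minus SWP, and 0.07 ± 0.13 for SWP minus MYC WT, which became 0.24 without SWP replicate 1. The first lies just past the limit of 0.5 and no longer passed it with the totals of the libraries made equal (-0.44) or their upper quartiles made equal (-0.48), or without MYC WT replicate 2 (-0.46) or MYC MUT replicate 2 (-0.49). The second did not pass without SWP replicate 3 (-0.48). PRKCQ, the PKC of T cell receptor signalling, was at 717 to 917 normalized counts in MYC WT, 759 to 863 in MYC MUT and 870 to 998 in SWP. The ranges of MYC WT and MYC MUT overlapped, and the log2 difference was -0.03 ± 0.11. In SWP it was 0.17 ± 0.11 above MYC WT. Without MYC WT replicate 1 these became -0.14 and 0.06.

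The atypical PKCs were lower in MYC MUT by small amounts. PRKCI, the catalytic partner of the PAR polarity complex, was at 6229, 6207 and 5808 normalized counts in MYC WT, at 5267, 5134 and 4865 in MYC MUT, and at 5495, 6162 and 5778 in SWP. The MYC MUT libraries were below all others, by -0.26 ± 0.07 from MYC WT on the log2 scale. PRKCZ was at 2412, 2450 and 2519 normalized counts in MYC WT, at 2085, 2043 and 2115 in MYC MUT, and at 2125, 2271 and 2313 in SWP. Its 3 lines did not overlap, with log2 differences from MYC WT of -0.24 ± 0.06 in MYC MUT and -0.14 ± 0.06 in SWP. PRKCZ overlaps FAAP20, a gene on the opposite strand that averaged 3366 normalized counts over the 9 libraries, and the antisense RNA PRKCZ-AS1, which averaged 37.0. The log2 difference of FAAP20 was -0.27 in MYC MUT and 0.05 in SWP, both against MYC WT. That of PRKCZ-AS1 was 0.38 and 0.32 in the same comparisons. Since the use of strand in counting is not given, reads of PRKCZ and of these genes may not be told apart. No other member overlaps an annotated gene with a mean of at least 10.

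PRKD1 was at 1363, 1687 and 1532 normalized counts in MYC WT, at 1497, 1450 and 1521 in MYC MUT, and at 1374, 1455 and 1490 in SWP. The 3 ranges overlapped, and the log2 differences from MYC WT were -0.03 ± 0.09 in MYC MUT and -0.08 ± 0.09 in SWP. Of its relatives outside the 9, PRKD2 was at -0.40 ± 0.08 in MYC MUT minus MYC WT and PRKD3 at -0.27 ± 0.06 (limma adjusted p = 0.00245 and 0.00536), both within the fold limit of 0.5. The PKC-related kinase PKN2 was at -0.37 ± 0.07 in the same comparison (limma adjusted p = 0.00268). PKN3 was at -0.35 ± 0.12 against MYC WT and passed the limit in MYC MUT against SWP, at -0.57 ± 0.12 (limma adjusted p = 0.00282), though not without SWP replicate 3 (-0.49).

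**Figure D2:**
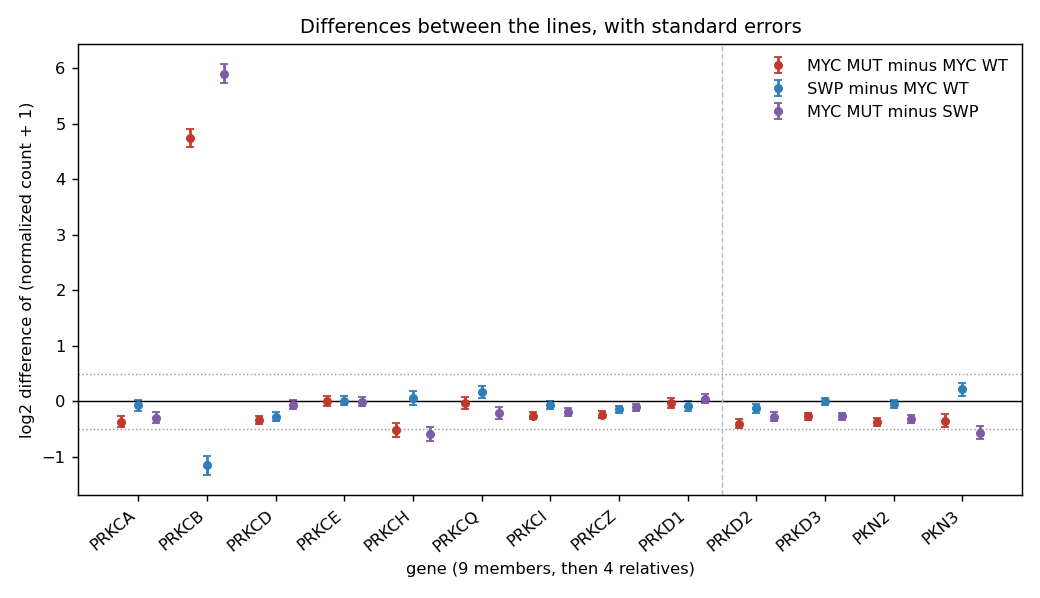
Log2 difference of (normalized count + 1) between lines, with standard errors from limma (n = 3 against 3), for the 9 members and 4 relatives; dotted lines mark 0.5 in either direction. PRKCB is high in MYC MUT and low in SWP, and the other genes lie between -0.58 and 0.22.

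Counted over the 9 members, where a call is an adjusted p under 0.05 together with a log2 difference beyond 0.5, 1 member (PRKCB) was called higher and 1 (PRKCH) lower in MYC MUT against MYC WT. Over all genes tested, 11.3% were called higher and 10.1% lower in that comparison. In SWP against MYC WT, no member was called higher and 1 (PRKCB) lower, where 2.15% of all genes were called higher and 2.98% lower. In MYC MUT against SWP, PRKCB was called higher and PRKCH lower, where the shares over all genes were 12.3% and 8.31%. These counts restate the choice of the members and nothing is read from them. Of all genes called in MYC MUT against MYC WT, 52.8% were higher, a share that became 64.2% once the library totals were made equal. Between MYC MUT and MYC WT, 7 of the 9 members had a log2 difference below 0, with a median of -0.24, where the median of all genes tested was -0.00338, and the number below 0 was 5 with equal totals or equal upper quartiles. In SWP against MYC WT the median of the members was -0.07 and that of all genes -0.06.

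The genes around PRKCB did not show its difference. The nearest protein-coding gene past its end, CACNG3, 35.7 kb away, had at most 1 read in any library, as did CHP2, 77.0 kb before its start. ERN2, the next protein-coding gene before the start, had at most 8. PLK1, the mitotic kinase 146 kb before the start, was at 18364 ± 1272 normalized counts in MYC WT and 16565 ± 95.5 in MYC MUT (SD, n = 3), a log2 difference of -0.15 ± 0.07 (limma adjusted p = 0.139). DCTN5, a dynactin subunit 159 kb before the start, was at 0.46 ± 0.11 (limma adjusted p = 0.00621), within the fold limit. RBBP6, 317 kb past the end, was at -0.07 ± 0.11 (limma adjusted p = 0.645). Within 5 Mb of PRKCB, 98 other genes were tested, of which 3 (DNAH3, GSG1L and SBK1) were called higher in MYC MUT and 7 lower, 3.06% and 7.14%, with a median log2 difference of 0.06. Over all genes tested, 11.3% were called higher and 10.1% lower in that comparison. In SWP against MYC WT, 3 of the 98 were called higher and 3 lower, beside 2.15% and 2.98% of all genes. For the other members, the median over the tested genes within 5 Mb lay between -0.31 (PRKCZ, 120 genes) and 0.10 (PRKCD, 165 genes) in MYC MUT against MYC WT. Around PRKCZ, 31 of the 120 genes (25.8%) were called lower, against 10.1% of all genes tested.

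**Figure D3:**
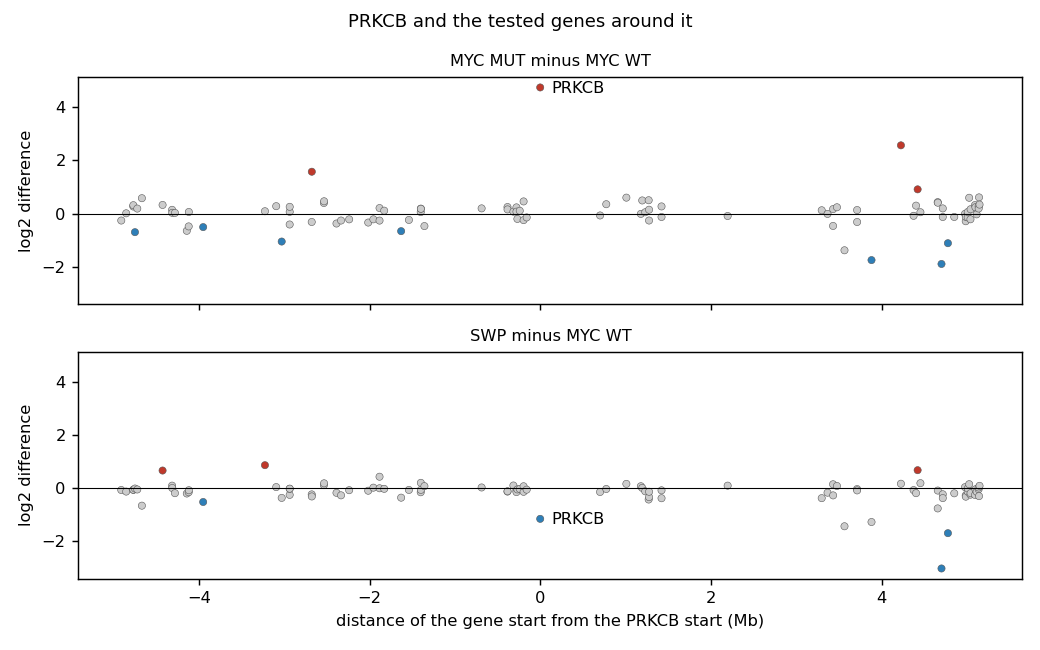
Log2 difference from MYC WT (vertical axis) of PRKCB and the 98 other tested genes within 5 Mb, by distance of the gene start from the PRKCB start in Mb, for MYC MUT (top) and SWP (bottom); red points were called higher, blue points lower and grey points neither. PRKCB stands at 4.74 in MYC MUT and -1.15 in SWP, and the genes within 1 Mb on either side were not called in either line.

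By pattern over the 9 libraries, 5 genes were most like PRKCB among the 16868 with a mean of at least 50 normalized counts, by Pearson's r of log2(normalized count + 1). They were TMEM59L (r = 0.999), CRMP1 (0.997), RYR2 (0.996), EPHB1 (0.996) and RNF32-DT (0.995), and none lies on chromosome 16. CRMP1, a cytoskeletal protein of axon guidance, averaged 64.4 ± 8.46 normalized counts in MYC WT, 1416 ± 73.4 in MYC MUT and 26.2 ± 3.00 in SWP (SD, n = 3). EPHB1, an ephrin receptor, averaged 201 ± 9.11, 988 ± 27.4 and 150 ± 12.4 in the same lines. The 9 points fall into groups by line, and 435 of the genes compared had r of at least 0.95, so the likeness describes the order and spacing of the lines and no more.

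The counts of the pathway lists in MYC MUT against MYC WT stand beside 11.3% of all tested genes called higher and 10.1% called lower. Those in SWP against MYC WT stand beside 2.15% and 2.98%, and those in MYC MUT against SWP beside 12.3% and 8.31%. Of 18 genes of Gq proteins, phospholipase C and phospholipase C-like proteins (PLCL1 and PLCL2), 14 were tested (not GNA14, GNA15, PLCD4 or PLCH2). In MYC MUT against MYC WT 1 was called higher and 3 lower, with a median log2 difference of -0.14. The Gq family gene GNA11 was higher by 0.51 ± 0.15 (limma adjusted p = 0.0171). PLCB2 was lower by -1.31 ± 0.14 (limma adjusted p = 4.69e-05), at 103 ± 5.08 normalized counts in MYC WT and 40.8 ± 2.37 in MYC MUT (SD, n = 3). PLCH1 (-0.63 ± 0.09) and PLCG2 (-0.61 ± 0.14) were also lower (limma adjusted p = 0.000397 and 0.00555). These 3 were called lower in MYC MUT against SWP too, and none of the 14 was called in SWP against MYC WT. The call of GNA11 was lost without MYC WT replicate 2 or 3 or MYC MUT replicate 1 or 3, at 0.42 to 0.50, and that of PLCG2 in MYC MUT against SWP in 6 of the 20 alternatives, at -0.50 to -0.39, of which 3 left out 1 library (MYC MUT replicate 2 or SWP replicate 2 or 3). With the replicate number as a block, PLCL1 was called lower too in MYC MUT against SWP, at -0.56 ± 0.18 (limma adjusted p = 0.0238).

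Diacylglycerol kinases remove diacylglycerol. Of 10 such genes 8 were tested (not DGKB or DGKG), and 2 were called higher and 1 lower in MYC MUT against MYC WT, where the shares of all genes were 11.3% and 10.1%. DGKK had 4.42 ± 2.51 normalized counts in MYC WT, 160 ± 16.8 in MYC MUT and 4.69 ± 1.94 in SWP (SD, n = 3), a log2 difference of 4.99 ± 0.36 for MYC MUT minus MYC WT (limma adjusted p = 3.18e-06). DGKI was higher by 2.26 ± 0.34 at low counts (5.24 to 29.0 on average) and DGKH lower by -0.60 ± 0.11 (limma adjusted p = 0.000387 and 0.00117). DGKA was called in SWP against MYC WT, at -0.54 ± 0.15, and in MYC MUT against SWP, at 0.92 ± 0.15 (limma adjusted p = 0.04 and 0.000544). The former call was lost in 14 of the 20 alternatives, among them edgeR and every fit without 1 library except that without MYC WT replicate 1, at -0.61 to -0.40. In MYC MUT against SWP, DGKK (4.87), DGKI (1.87) and DGKH (-0.63) were called as well.

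Of 9 other diacylglycerol receptors, 7 were tested (not RASGRP4 or UNC13C), with 2 called higher and 2 lower in MYC MUT against MYC WT (11.3% and 10.1% of all genes). UNC13A, which primes synaptic vesicles, was higher by 2.45 ± 0.22 and the Ras activator RASGRP1 by 0.70 ± 0.12 (limma adjusted p = 1.29e-05 and 0.0011). RASGRP3 was lower by -1.17 ± 0.19 and UNC13B by -0.51 ± 0.06 (limma adjusted p = 0.000755 and 7.03e-05). UNC13A, RASGRP3 and UNC13B were also called in MYC MUT against SWP, at 3.15, -1.57 and -0.60, and none of the 7 was called in SWP against MYC WT. The call of UNC13B against MYC WT was lost in 5 of the 20 alternatives, at -0.50 to -0.44, which were equal totals, equal upper quartiles, edgeR and the fits without MYC WT replicate 2 or MYC MUT replicate 2. With the replicate number as a block, UNC13A was called lower in SWP against MYC WT, at -0.70 ± 0.21 (limma adjusted p = 0.0328), and RASGRP2 higher in MYC MUT against SWP, at 0.75 ± 0.18 (limma adjusted p = 0.00486).

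Of the kinases and phosphatases that prime or inactivate PKC, MTOR, a kinase needed for PKC priming, was lower in both edited lines, by -0.58 ± 0.08 in MYC MUT and -0.61 ± 0.08 in SWP (limma adjusted p = 0.000208 and 0.000623), against the same MYC WT libraries. It was the only one of the 7 genes of the list that was called in any comparison. Over all genes, 11.3% were called higher and 10.1% lower in MYC MUT against MYC WT. The shares were 2.15% and 2.98% in SWP against MYC WT, and 12.3% and 8.31% in MYC MUT against SWP. Of 5 anchors 3 were tested (not CAVIN2 or CAVIN3), and AKAP12 was lower in MYC MUT, at -0.54 ± 0.09 against MYC WT and -0.63 ± 0.09 against SWP (limma adjusted p = 0.000901 and 0.000344). The former became -0.47, and no call, with equal totals or without MYC WT replicate 2.

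Of 12 polarity partners of the atypical PKCs, all tested, 3 were called higher and 1 lower in MYC MUT against MYC WT, beside 11.3% and 10.1% of all genes, with a median log2 difference of 0.28. PARD6A, the adaptor that binds PRKCI and PRKCZ directly, was at 136 ± 38.4 normalized counts in MYC WT, 485 ± 12.9 in MYC MUT and 243 ± 14.6 in SWP (SD, n = 3). It was higher than in MYC WT in both edited lines, by 1.87 ± 0.19 and 0.87 ± 0.19 on the log2 scale (limma adjusted p = 2.59e-05 and 0.0126). CRB3, the apical Crumbs protein, was higher in both as well, by 1.28 ± 0.25 and 0.98 ± 0.25 (limma adjusted p = 0.00222 and 0.031). SQSTM1 was higher by 0.51 ± 0.09 and PARD3, the scaffold of the complex, lower by -0.61 ± 0.07 in MYC MUT (limma adjusted p = 0.00133 and 5.39e-05). In MYC MUT against SWP, PARD6A (1.00), LLGL1 (0.59) and LLGL2 (0.53) were called higher and PARD3 (-0.66) lower. The shares over all genes in that comparison were 12.3% and 8.31%. The call of CRB3 in SWP was lost in 9 of the 19 alternatives that tested it, at 0.78 to 1.04, of which 7 left out 1 library, and that of PARD6A in SWP in 1, the fit of MYC WT and SWP alone. SQSTM1 missed the limit, at 0.43 and 0.49, when MYC WT replicate 2 or MYC MUT replicate 3 was left out, and LLGL2 did so at 0.46 without SWP replicate 1 and at 0.49 with edgeR and DESeq2.

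Of 14 substrates of PKC or protein kinase D, 13 were tested (not PLEK). In MYC MUT against MYC WT 2 were called higher and 2 lower, against 11.3% and 10.1% of all genes, with a median log2 difference of -0.07. The neuronal substrates GAP43 and NRGN were higher by 0.73 ± 0.25 and 0.65 ± 0.09 (limma adjusted p = 0.0391 and 0.000187). PPP1R14A, a phosphatase inhibitor that PKC switches on, was lower by -0.93 ± 0.15 and the cytoskeletal adducin ADD3 by -0.67 ± 0.09 (limma adjusted p = 0.000536 and 0.000151). PPP1R14A (-0.76), PPP1R14C (-0.71) and ADD3 (-0.67) were called lower in MYC MUT against SWP, beside 8.31% of all genes. No substrate was called in SWP against MYC WT. The call of GAP43 was lost in 8 of the 20 alternatives, among them all 6 without a library of MYC WT or MYC MUT, at 0.61 to 0.81. With the replicate number as a block, GAP43 was called higher in MYC MUT against SWP, at 0.52 ± 0.19 (limma adjusted p = 0.0405). Of 6 genes of the CARD, BCL10 and MALT1 arm, through which PRKCB and PRKCQ reach NF-κB in lymphocytes, 5 were tested (not CARD14) and none was called in the 3 comparisons.

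The AP-1 and immediate early genes, transcribed within minutes of PKC activation in many cells, had the highest median of the listed pathway groups in MYC MUT against MYC WT, 0.83 on the log2 scale. Of 11 genes, all tested, 7 were called higher and none lower, against 11.3% and 10.1% of all genes. FOS was at 114, 64.0 and 56.8 normalized counts in MYC WT, at 925, 335 and 345 in MYC MUT, and at 176, 123 and 119 in SWP. Every MYC MUT library was above every other library, with replicate 1 far above the other 2, and the log2 difference from MYC WT was 2.66 ± 0.37 (limma adjusted p = 0.000271). EGR1 was higher by 2.07 ± 0.23 in MYC MUT and by 1.03 ± 0.23 in SWP (limma adjusted p = 5.51e-05 and 0.0162), and FOSL2 by 0.97 ± 0.12 in MYC MUT (limma adjusted p = 0.000123). FOSB, JUNB, JUND and IER2 made up the 7. JUN was called in SWP against MYC WT, at 0.51 ± 0.10 (limma adjusted p = 0.0095). In MYC MUT against SWP, 4 of the 11 were called higher, led by FOS (1.79), EGR1 (1.04) and JUNB (0.87), beside 12.3% of all genes. The call of FOSB against MYC WT was lost without MYC WT replicate 2 or 3 or MYC MUT replicate 1 or 3, at 0.70 to 0.92. In SWP, EGR1 was no call without MYC WT replicate 2 (0.85), SWP replicate 3 (1.00) or the variance trend (1.03), and JUN without SWP replicate 2 (0.48) or 3 (0.42). With the replicate number as a block, FOS was called higher in SWP against MYC WT, at 0.87 ± 0.17 (limma adjusted p = 0.00357), and FOSB in MYC MUT against SWP, at 0.63 ± 0.15 (limma adjusted p = 0.00368).

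**Figure D4:**
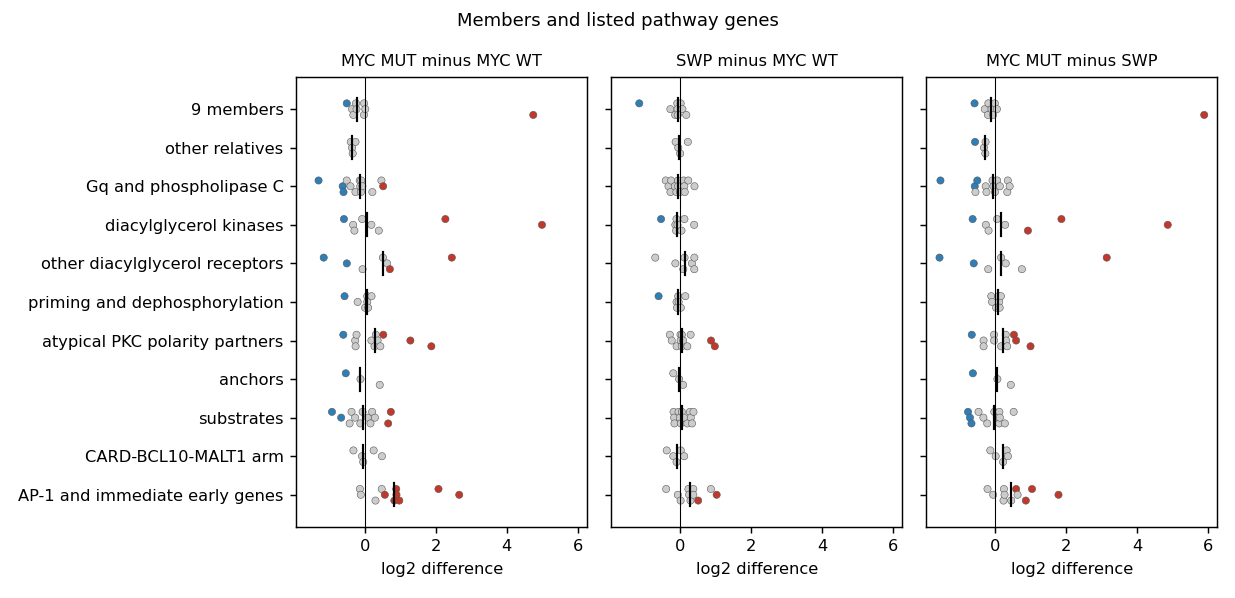
Log2 differences (horizontal axis) of the 9 members and of the tested genes of 10 pathway lists in 3 comparisons, with red points for genes called higher, blue for lower and grey for neither, and a bar at the median. PRKCB is the member farthest to the right in both comparisons of MYC MUT, and 7 of 11 AP-1 and immediate early genes are red in MYC MUT minus MYC WT.

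Markers of neurons and of blood, endothelial and fibroblast cells were measured beside PRKCB. Of 8 neuronal markers, 4 were tested (MAP2, TUBB3, RBFOX3 and SYP). All 4 were called higher in MYC MUT against MYC WT, by 0.71 to 2.04 on the log2 scale, beside 11.3% of all tested genes. None was called in SWP against MYC WT. Of these 4, all but SYP were also called higher in MYC MUT against SWP, beside 12.3% of all tested genes. The summed level of the 8 was 1257 to 1820 normalized counts in MYC WT, 2474 to 2847 in MYC MUT and 1643 to 2020 in SWP, while STMN2, ELAVL3, ELAVL4 and DCX averaged under 5 normalized counts in every line. Of 7 blood cell markers, the B cell marker MS4A1 and the T cell marker CD2 had no read in any library. These and PTPRC and CD3E had at most 3 reads in each. Another B cell marker, CD79A, was at 15.4, 16.8 and 10.6 normalized counts in MYC WT and at 15.7, 22.4 and 24.4 in MYC MUT. In SWP it was at 11.5, 17.1 and 18.5. Neither of the 2 tested, CD79A and SPI1, was called in MYC MUT or SWP against MYC WT. The other comparison, MYC MUT against SWP, had a call for SPI1, a myeloid and B cell factor, at 1.04 ± 0.29 (limma adjusted p = 0.0148) and on 5.77 to 19.4 normalized counts, and the call was lost with DESeq2 and without MYC MUT replicate 1 or 2 or SWP replicate 3. The summed level of the 7 was 26.0 to 31.4 normalized counts in MYC WT, 37.9 to 42.8 in MYC MUT and 26.4 to 31.2 in SWP. Of 4 endothelial markers only VWF was tested, at 4.49 ± 5.03 normalized counts in MYC WT, 30.8 ± 7.84 in MYC MUT (SD, n = 3) and 3.46 to 5.94 in SWP. It was called higher in MYC MUT against MYC WT and against SWP, by 2.91 ± 0.55 and 2.39 ± 0.55 (limma adjusted p = 0.00172 and 0.00533), in all 19 alternatives that tested it. The summed level of the 4 was 0.963 to 14.4 in MYC WT, 32.1 to 46.2 in MYC MUT and 5.77 to 8.91 in SWP. Of the 5 fibroblast markers 3 were tested, and COL1A1 was called higher in MYC MUT against both other lines. LUM was called higher in SWP against MYC WT and lower in MYC MUT against SWP, the former not in a fit of MYC WT and SWP alone or without MYC WT replicate 3 (0.92) or SWP replicate 2 (0.80), the latter lost in 4 of 19 alternatives. The summed level of the 5 was 1088 to 1267 in MYC WT, 1907 to 2006 in MYC MUT and 791 to 1188 in SWP.

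The HEK293 lineage markers also differed between the lines. Of the 8, all tested, 4 (PAX2, LHX1, KRT8 and NEFL) were called higher and 1 (NEFM) lower in MYC MUT against MYC WT. Over all genes the shares were 11.3% and 10.1%. In SWP against MYC WT, 2 (KRT8 and NEFL) were called lower, beside 2.98% of all genes. In MYC MUT against SWP, 5 (PAX2, LHX1, KRT8, NEFL and KRT18) were called higher, beside 12.3% of all genes. KRT8, an epithelial keratin, averaged 462 ± 54.8 normalized counts in MYC WT, 782 ± 24.9 in MYC MUT and 190 ± 17.4 in SWP (SD, n = 3), and was called in all 20 alternatives of each comparison. NEFL, a neurofilament subunit, averaged 7014 ± 136, 14778 ± 338 and 4842 ± 613 in the same lines. Both had the order of the lines that PRKCB has, with no overlap, as did LHX1, KRT18 and EYA1 of the same list. The call of NEFL in SWP against MYC WT was lost in 4 of the 20 alternatives, among them that without SWP replicate 1 (-0.44), and that of PAX2 in MYC MUT against MYC WT in 8, among them that without MYC WT replicate 1 (0.47). The summed level of the 8 was 78550 to 90018 in MYC WT, 81944 to 93241 in MYC MUT and 66737 to 76922 in SWP. The part of the neuronal, blood, endothelial, fibroblast or lineage genes in the level of PRKCB was not tested.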

How the data were processed

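RNA-seq of 9 HEK293T libraries, 3 per line, was used out of 213 samples of the study, and the other assays were not analysed here. Poly(A) RNA was made into strand-specific libraries by the authors, who mapped the reads on hg38 with bwa mem (not splice-aware), marked and dropped duplicates with Picard and counted per GENCODE gene. The counting tool and its use of strand are not given in the sources used here. The submitters' processing notes name BWA 0.7.17-r2188. The deposited values are a signal, read counts divided by 1 DESeq2 size factor per library. The factors were recovered, and 100% of the values then gave whole reads within 0.001.

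Genes were matched to GENCODE release 44 on GRCh38 (57754 of 58336 identifiers, 20743 of the 20884 tested). Genes with a mean of at least 10 were tested with limma 3.58.1 (R 4.3.3, eBayes with trend) on log2(normalized count + 1). All 9 libraries entered a single fit, p-values were adjusted after Benjamini-Hochberg over all tested genes, and calls were made under 0.05 if the log2 difference also passed 0.5. This scale understates differences of low genes. Tables and figures were made in Python 3.11.15 with numpy 2.4.6, pandas 2.3.3 and matplotlib 3.10.9. Alternatives used edgeR 4.0.16 (TMM, quasi-likelihood) and DESeq2 1.42.0, both on recovered reads, and other scalings, filters, pseudocounts, thresholds and fits, and left out each library. On simulated MYC MUT and MYC WT data with 200 of 20884 genes changed, limma called 186 of the changed genes (86 of 100 at a log2 change of 1 and 100 of 100 at 2) and 3 others. The simulation gave every gene the same dispersion and set no library apart from its line. It held no smaller changes, so these counts check the code and give no error rates for the data here.

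The members and gene lists were chosen with earlier results of these data known. Named genes are the 9 members, 4 relatives, MYC, up to 3 called genes per list, direction and comparison with the largest difference, listed genes not tested, overlapping genes and the 5 genes most like PRKCB. Some listed genes are not reported here and are left out of the counts by list. The neighbours and the remaining called or marker genes were named after their values were seen. The labels number the libraries as biological replicates without saying that they came from separate cultures, so that p-values measure the spread between these libraries. Deviations of same-numbered libraries correlated at 0.555, 0.403 and 0.102 between SWP and MYC WT, where libraries of unlike number reached 0.263. Between MYC MUT and SWP, same-numbered libraries correlated at 0.333, 0.241 and 0.232, where libraries of unlike number reached 0.0236. The labels do not say that equal numbers are pairs, and the main fit did not pair the libraries. If they are pairs, its p-values ignore this, and fits with the replicate number as a block are given as an alternative. Promoters are from RefSeq on GRCh38.p14, which gave all 9 members. Counts give the precision of sampling only.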

Additional observations from a re-analysis of the deposited data

How the results depend on the processing

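The log2 difference of PRKCB, for which the members were selected on these libraries, so that its stability supports nothing, ranged over 20 alternatives from 4.62 to 4.91 (MYC MUT against MYC WT), -1.28 to -0.98 (SWP against MYC WT) and 5.69 to 6.00 (MYC MUT against SWP). The signs of PRKCA and PRKCH in SWP against MYC WT, of PRKCD in MYC MUT against SWP, of PRKCQ and PRKD1 in MYC MUT against MYC WT, and of PRKCE in all 3 comparisons changed in at least 1 alternative, and none of these was a call. With an adjusted p and no fold limit, 8021, 2083 and 7944 genes, 6, 2 and 4 members and 53, 10 and 44 pathway genes were called in MYC MUT against MYC WT, SWP against MYC WT and MYC MUT against SWP. With a log2 difference over 1 there were 1648, 505 and 1723 genes, 9, 1 and 7 pathway genes, and 1 member (PRKCB) in each comparison. Counts of members follow from their selection. Rescaling to equal totals or to equal upper quartiles left 1 member called in MYC MUT against MYC WT. In SWP against MYC WT, 6 pathway genes were called, and 3 in a fit of these lines alone. Leaving out 1 library gave 3923 to 4950, 837 to 1252 and 3785 to 4807 genes, 1 to 2, 1 to 1 and 1 to 2 members, and 24 to 32, 2 to 7 and 22 to 25 pathway genes. Of the pathway genes in SWP against MYC WT, 3 were called without MYC WT replicate 2 or SWP replicate 2, and 2 without SWP replicate 3. With the replicate number as a block, 4970, 1464 and 4773 genes were called (4476, 1072 and 4309 without it), no member changed its call, and among the tested relatives, pathway and marker genes 8 calls were added and none was lost. In MYC MUT against MYC WT, the block added PLCD1 as lower, at -0.52 ± 0.16, and RASGRP2 as higher, at 0.62 ± 0.18 (limma adjusted p = 0.0156 and 0.0143). Between these lines, deviations of same-numbered libraries correlated at 0.328, 0.146 and 0.049, where libraries of unlike number reached 0.154. On the recovered reads, edgeR called 4554, 1110 and 4407 genes and DESeq2 4412, 1176 and 4241. The lowest-count member values, 40 to 89 reads of PRKCB in SWP, limit the precision of its difference there. The causes of these changes were not tested.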
